A study of Mus musculus with 6 samples.

Results

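Respiratory complex I was examined through the nuclear genes of its subunits in sorted bone marrow cells. The members are the rows of the deposited expression table whose Ensembl identifier carries a mouse symbol of the Ndufa, Ndufb, Ndufc, Ndufs or Ndufv series, or Ndufab1. Assembly factors (Ndufaf genes) and rows named as pseudogenes were left out. The rule found 41 of 56750 rows. Of these, 7 encode core subunits and 29 encode accessory subunits. The other 5 are Ndufa4, which is now counted as a subunit of complex IV, its relative Ndufa4l2, and the gene copies Ndufa11b, Ndufb4c and Ndufs6b.

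The cells were labelled lineage-negative, Sca1-positive and cKit-positive (LSK), a bone marrow fraction that contains hematopoietic stem cells and multipotent progenitors. The DSS-induced colitis (DIC) group comprised 3 C57BL/6 mice given dextran sulfate sodium, which injures the gut lining, at 2.5% for 5 days, and the control group comprised 3 C57BL/6 mice. Age and sex are not given in the sources used here, and the labels do not say whether cells of several mice were pooled in a library. RNA-seq libraries (SMART-Seq v4, for small amounts of RNA) numbered 3 in each group, and their values are in TPM, a transcript level scaled by length and to a fixed sum per library. The scaling means that the sequencing depth behind a value is unknown, and no counting interval can be given. Library names (DIC 1, DIC 2, DIC 3, control 1, control 2, control 4) follow the column numbers of the table. Nothing ties a library to its animal, so every p-value reflects the spread among these 6 libraries, which may be partly technical.

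Complex I oxidises NADH, passes the electrons along a chain of iron-sulfur clusters to ubiquinone, and pumps protons across the inner mitochondrial membrane. Its peripheral arm holds the N module, where NADH binds, and the Q module, where ubiquinone is reduced, while its membrane arm holds the proton pumps. The core subunits carry out the catalysis and have bacterial counterparts, and the accessory subunits surround and stabilise them. In blood formation, long-term stem cells are known for low reliance on respiration, which increases as progenitors become active.

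The promoters of 4 subunit genes are shown as background. The members' levels varied together across libraries, as the values further on show, and a part of the promoters in this was not tested. Ndufs3, Ndufa11 and Ndufa10 had the 3 largest differences between the groups, and Ndufb4 had the lowest level. The sequences are from RefSeq (GRCm38.p6) and give the 250 bases before the gene start. Capitals mark matches to the NRF1 motif GCGCANGCG, the ETS motif CCGGAAG, the YY1 motif AAGATGGCG or the CRE motif TGACGTCA, on either strand. Among these windows Ndufb4 had 3 NRF1 matches, Ndufa11 an overlapping pair of NRF1 matches and a CRE match, Ndufa10 a CRE match and Ndufs3 an ETS match.
Ndufs3 (chr2:90904722-90904971, minus strand): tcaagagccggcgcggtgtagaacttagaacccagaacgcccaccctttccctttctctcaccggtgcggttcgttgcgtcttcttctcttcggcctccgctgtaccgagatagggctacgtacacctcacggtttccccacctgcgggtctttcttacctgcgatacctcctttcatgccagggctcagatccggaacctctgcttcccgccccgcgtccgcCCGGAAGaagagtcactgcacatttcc
Ndufa11 (chr17:56717512-56717761, plus strand): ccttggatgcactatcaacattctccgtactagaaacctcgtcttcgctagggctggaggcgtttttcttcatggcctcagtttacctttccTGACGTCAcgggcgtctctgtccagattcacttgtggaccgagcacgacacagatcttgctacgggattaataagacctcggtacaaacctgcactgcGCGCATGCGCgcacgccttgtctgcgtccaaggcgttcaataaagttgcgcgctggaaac
Ndufa10 (chr1:92473759-92474008, minus strand): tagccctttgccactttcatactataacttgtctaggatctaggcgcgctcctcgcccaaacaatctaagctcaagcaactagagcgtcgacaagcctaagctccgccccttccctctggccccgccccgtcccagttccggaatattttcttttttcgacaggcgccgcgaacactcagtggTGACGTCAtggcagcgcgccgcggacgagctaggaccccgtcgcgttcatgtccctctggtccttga
Ndufb4 (chr16:37654369-37654618, minus strand): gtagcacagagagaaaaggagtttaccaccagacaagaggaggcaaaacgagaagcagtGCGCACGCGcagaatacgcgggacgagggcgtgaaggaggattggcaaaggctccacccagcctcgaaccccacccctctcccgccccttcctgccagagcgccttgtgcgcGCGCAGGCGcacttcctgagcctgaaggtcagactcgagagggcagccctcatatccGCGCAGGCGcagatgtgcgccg

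NRF1 is a transcription factor known for many respiratory genes, and ETS, YY1 and CRE motifs are bound by broadly expressed factors. Windows of 300 bases, 250 before and 50 after the gene start, were in the reference table for 33 of the 41 members and for 27025 genes in all. The NRF1 motif was in 8 of the 33 members' windows (24.2%, against 7.03% of all genes). The YY1 motif was in 5 (15.2% against 1.64%), and the CRE motif in 3 (9.09% against 2.03%). The ETS motif was in 4 (12.1% against 9.93%), and the SP1 motif GGGCGG in 15 (45.5% against 38.2%). The ERR motif TCAAGGTCA matched in 0 of the 33 windows (0.466% of all genes). Both strands were searched, and matches of the NRF1 motif can overlap one another. The members' windows had a median G and C content of 59.0%, against 52.7% for all genes. A match is a run of letters and not evidence of binding.

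As a check of the sort, Kit lay at 54.2 to 99.5 TPM and Ly6a, which encodes Sca1, at 15.5 to 49.9 TPM. Kit was at 90.7, 82.3 and 95.2 TPM in DIC 1 to 3 and at 54.2, 99.5 and 68.2 TPM in controls 1, 2 and 4. Controls 1 and 4 were thus below every DIC library and control 2 was not. A list of 9 sort and stem cell genes, Kit and Ly6a among them, summed to 209, 233 and 244 TPM in DIC. Its sum was 203, 322 and 268 TPM in controls 1, 2 and 4. The part of these differences in the complex I values was not tested. The granulocyte genes Mpo (10026 to 13183 TPM) and S100a8 (13283 to 105476 TPM) were far higher in every library. On the first principal component of all tested genes, which held 43.8% of the variance, control 2 (-6.02) lay nearer to DIC 2 (-10.9) than to control 1 (40.6) or control 4 (53.2). The main counts and medians, and the members described singly, are therefore given with and without control 2. A list of 16 neutrophil markers took 15.5% to 22.6% of the TPM of a DIC library. Its share was 12.6% in control 2, 4.22% in control 1 and 3.03% in control 4. All 16 markers were above 0 in every library. In bulk samples, fewer cells of a type and less RNA per cell cannot be told apart.

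Complex I genes had lower values in DIC than in controls 1 and 4, and control 2 lay close to DIC. The 36 core and accessory genes summed to 8307, 8834 and 9085 TPM in DIC 1 to 3. The sum was 12607 TPM in control 1, 9410 in control 2 and 11563 in control 4. The mean sum was 8742 ± 397 TPM for DIC libraries and 11193 ± 1630 TPM for control libraries (SD, n = 3 per group). The groups did not overlap, but control 2 was nearer to DIC 3 than to the other controls. As a share of the library, the sum was 0.831% in DIC 1, 0.883% in DIC 2 and 0.909% in DIC 3. Control 2 followed at 0.941%, then control 4 at 1.16% and control 1 at 1.26%.

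**Figure D1:**
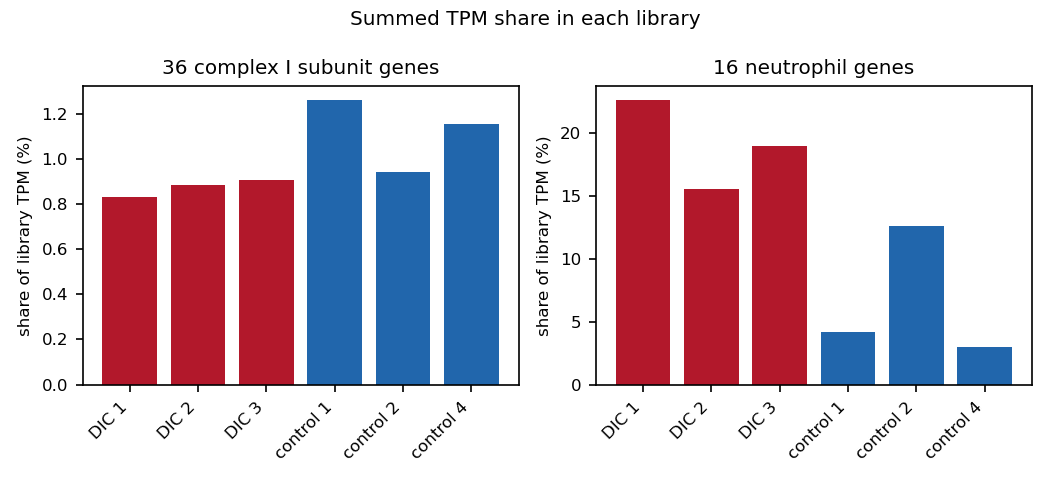
Share of each library's TPM (%, bars, linear axes from 0) taken by the 36 core and accessory complex I genes (left) and by 16 neutrophil marker genes (right), DIC in red and control in blue. Controls 1 and 4 have the highest complex I shares (1.26% and 1.16%) and the lowest neutrophil shares (4.22% and 3.03%), and control 2 lies between them and DIC in both.

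Of the 41 members, 38 were tested, each at 42.7 TPM or more in every library, so the filter on low values did not select among them. Ndufa11b, Ndufa4l2 and Ndufs6b were not tested. Ndufs6b was listed at 0 in all 6 libraries. Ndufa11b was listed at 0 except for 0.39 TPM in control 4, and Ndufa4l2 except for 0.09 TPM in DIC 2 and in control 1. Among tested members 37 of 38 had negative fold changes in DIC, beside 7889 of the 13496 genes tested. The number of negative members was 30 after quantile normalization and 31 after the neutrophil markers were removed and TPM rescaled. The median log2 fold change of TPM + 1 was -0.36, against -0.08 for all 13496 genes tested. Without control 2 the 2 medians were -0.49 and -0.07.

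With limma and Benjamini-Hochberg adjustment over all genes, 0 of the 38 members passed the threshold of 0.05, and the lowest adjusted p was 0.212. Across all genes 0.0222% passed as lower in DIC. At an unadjusted p under 0.05, 16 members were lower and 0 higher, beside 13.8% of all genes lower. The groups did not overlap for 25 of the 38 members, each lower in DIC, beside 18.4% of all genes. Without control 2, 17 of the 38 members fell past the adjusted threshold and 0 rose, beside 8.45% of all genes that fell. These 17 were 2 core subunits, 14 accessory subunits and Ndufa4. Over all genes, the number past the threshold in either direction went from 8 to 1671 when control 2 was left out. Control 2 was singled out from these same values. The adjusted p-values without it, here and below, are therefore descriptions and not separate support for a difference. The members share the same 6 libraries and moved together, so their counts are not independent observations.

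**Figure D2:**
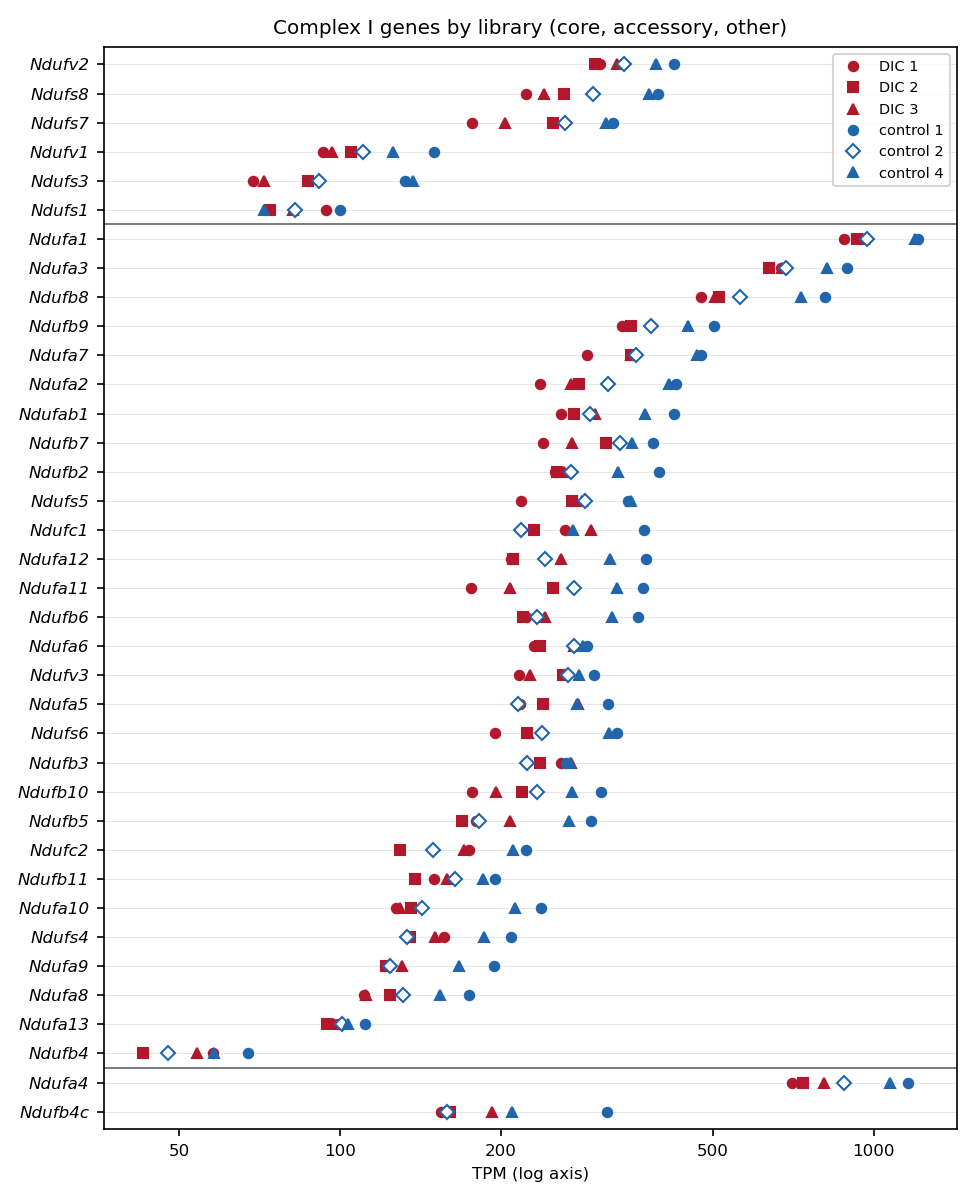
TPM (log axis) of 37 of the 38 tested genes in each library, core subunits on top, accessory subunits in the middle, Ndufa4 and Ndufb4c at the bottom. DIC libraries are red, controls 1 and 4 filled blue and control 2 an open blue diamond, which is the lowest control in every gene plotted except Ndufs1.

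The position of control 2 was the same across nearly all members. It was the lowest control for 37 of 38, the exception being Ndufs1. For 13 of 38 it lay within or below the DIC range. Controls 1 and 4 both lay above every DIC library for 34 of 38 members. Control 1 was the highest of the 6 libraries for 35 members, and DIC 1 the lowest for 25.

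Among core subunits, those of the Q module had the larger differences. Ndufs3 (ENSMUSG00000005510), a core subunit that holds no iron-sulfur cluster, was at 68.8, 87.0 and 71.9 TPM in DIC 1 to 3 and at 132, 91.1 and 137 TPM in controls 1, 2 and 4. All DIC libraries were below all controls, with DIC 2 and control 2 close together. Its log2 fold change was -0.64 ± 0.19 (SE, limma adjusted p = 0.212), and without control 2 it fell by 0.82 ± 0.13 (adjusted p = 0.0252).

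Ndufs8 (ENSMUSG00000059734), which carries iron-sulfur clusters on the path to ubiquinone, was at 223, 263 and 241 TPM in DIC and 394, 298 and 379 TPM in controls. The groups were apart, and control 2 was again the nearest to DIC. The log2 fold change was -0.55 ± 0.15 (limma adjusted p = 0.212), and without control 2 it fell by 0.68 ± 0.11 (adjusted p = 0.0253).

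Ndufs7 (ENSMUSG00000020153), which holds the last iron-sulfur cluster before ubiquinone, was at 177, 251 and 204 TPM in DIC and 325, 264 and 314 TPM in controls. DIC 2 was just below control 2, and the other DIC libraries were lower. The log2 fold change was -0.52 ± 0.16 (limma adjusted p = 0.212), and -0.62 ± 0.16 without control 2 (adjusted p = 0.0593).

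In the N module, Ndufv1 (ENSMUSG00000037916), which binds NADH and the flavin cofactor, was at 92.9, 105 and 96.4 TPM in DIC and 150, 111 and 125 TPM in controls. Its log2 fold change was -0.38 ± 0.14 (limma adjusted p = 0.221), with no overlap. Ndufv2 (ENSMUSG00000024099), its iron-sulfur partner, had the highest level of the core genes, at 307, 301 and 330 TPM in DIC and 423, 341 and 390 TPM in controls (log2 fold change -0.29 ± 0.13, limma adjusted p = 0.255). Neither passed without control 2 (adjusted p = 0.0576 and 0.0639).

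Ndufs1 (ENSMUSG00000025968), the largest core subunit and a carrier of several iron-sulfur clusters, did not share the pattern. It was at 94.3, 74.0 and 81.6 TPM in DIC and 99.8, 82.3 and 72.1 TPM in controls, so the groups were mixed and control 4 was the lowest of all. Its log2 fold change was -0.02, with a 95% interval of -0.40 to 0.36 (limma adjusted p = 0.955). Without control 2 it was -0.03 (adjusted p = 0.92). The sign turned positive under 5 alternatives. Exons of Ndufs1 overlap those of the tested genes Eef1b2 and Ino80dos in the annotation, so reads may have been shared. This limit is not particular to Ndufs1. Exons of 11 of the 38 tested members overlap a tested gene, among them Ndufs3, Ndufa11, Ndufa2, Ndufs6 and Ndufa3. Of the 75-base stretches of Ndufs1 3.24% occur in other genes, against 12.2% for Ndufs3.

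Over the 4 core genes of the Q module the median log2 fold change was -0.54, and over the 3 of the N module it was -0.29. Within each library, the mean log2 level of the Q-module core genes exceeded that of the N-module core genes by 0.014, 0.374 and 0.139 in DIC 1 to 3. The excess was 0.422, 0.338 and 0.587 in controls 1, 2 and 4. DIC 2 lay within the control range, so the groups overlapped on this ratio, which does not depend on the scaling of a library.

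**Figure D3:**
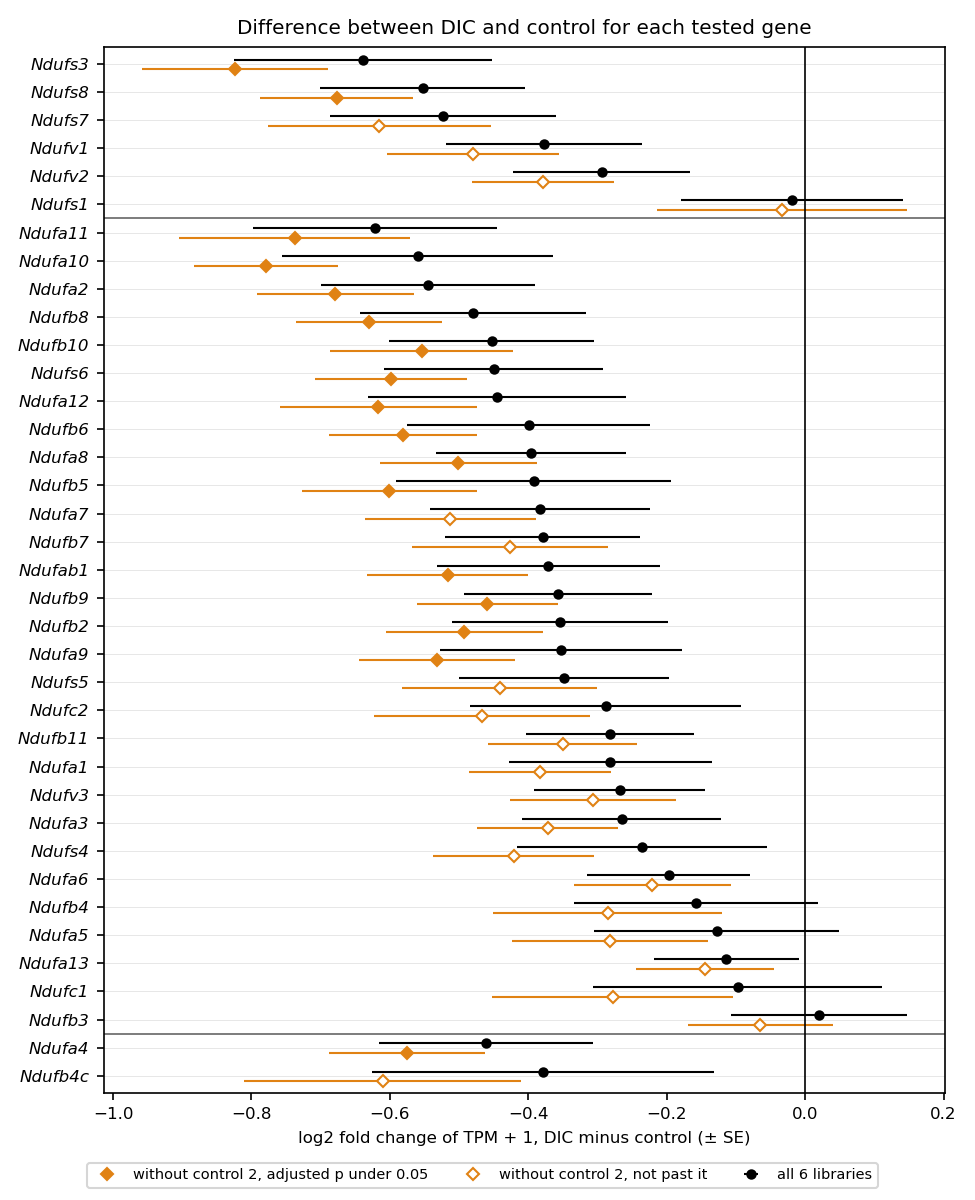
Log2 fold change of TPM + 1 (DIC minus control, ± SE) of 37 of the 38 tested genes, with all 6 libraries (black circles) and without control 2 (orange diamonds, filled where the limma adjusted p is under 0.05). All plotted values are negative without control 2, where 17 pass the threshold. With it, all plotted values but that of Ndufb3 are negative and 0 pass.

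Accessory subunits of the N module were lower in DIC in all 7 cases by sign, with a median log2 fold change of -0.38. For 5 of the 7 the groups did not overlap, beside 18.4% of all genes without overlap and lower in DIC. Ndufa2, a small subunit with a thioredoxin-like fold, was at 237, 280 and 270 TPM in DIC and 426, 317 and 414 TPM in controls (log2 fold change -0.54 ± 0.15, limma adjusted p = 0.212). The groups were apart, and without control 2 the gene fell by 0.68 ± 0.11 (adjusted p = 0.0259). Ndufs6, which binds zinc, was at 195, 224 and 225 TPM in DIC and 330, 238 and 320 TPM in controls. Its log2 fold change was -0.45 ± 0.16 (limma adjusted p = 0.216), and once control 2 was left out it fell by 0.60 ± 0.11 (adjusted p = 0.0297). The rest of this group, Ndufa6, Ndufa7, Ndufa12, Ndufs4 and Ndufv3, had log2 fold changes from -0.44 for Ndufa12 to -0.20 for Ndufa6.

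The proximal membrane arm had 9 tested accessory subunits with a median log2 fold change of -0.29. Of these, 7 did not overlap, beside 18.4% of all genes without overlap and lower in DIC. Ndufa11, a membrane subunit, had the second largest difference of all members. It was at 176, 250 and 208 TPM in DIC and 370, 275 and 331 TPM in controls (log2 fold change -0.62 ± 0.18, limma adjusted p = 0.212). Without control 2 it fell by 0.74 ± 0.17 (adjusted p = 0.0436). Ndufa11 overlaps exons of the tested gene Vmac.

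Ndufa10, which resembles a nucleoside kinase, was at 127, 136 and 130 TPM in DIC. Control 2, at 143 TPM, was above every DIC library but far from control 1 (238 TPM) and control 4 (213 TPM). The log2 fold change was -0.56 ± 0.20 (limma adjusted p = 0.214), and without control 2 it fell by 0.78 ± 0.10, with the lowest adjusted p of the members there (0.0193).

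The most abundant subunit genes were in this group and had smaller differences. Ndufa1, a single-pass membrane subunit, was at 878, 929 and 960 TPM in DIC and 1211, 972 and 1194 TPM in controls (log2 fold change -0.28 ± 0.15, limma adjusted p = 0.318). Ndufa3 was at 670, 637 and 672 TPM in DIC and 891, 684 and 818 TPM in controls (log2 fold change -0.27 ± 0.14, limma adjusted p = 0.333). For both genes control 2 was just above the DIC libraries, and quantile normalization turned the sign (0.016 and 0.065). Without control 2 the log2 fold changes were -0.38 and -0.37 (limma adjusted p = 0.0623 and 0.0659). At the other end, Ndufc1 (-0.10) and Ndufa13 (-0.11), named after their values were seen, had fold changes near that of all genes.

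Of the 10 accessory subunits of the distal membrane arm, 9 had negative fold changes (median -0.37). The groups did not overlap for 6, beside 18.4% of all genes without overlap and lower in DIC. Ndufb8 was at 473, 512 and 504 TPM in DIC and 810, 562 and 729 TPM in controls (log2 fold change -0.48 ± 0.16, limma adjusted p = 0.213). Ndufb10 was at 177, 220 and 196 TPM in DIC and 308, 234 and 271 TPM in controls (log2 fold change -0.45 ± 0.15, limma adjusted p = 0.212). Both were below every control in each DIC library, and both fell without control 2 (adjusted p = 0.0262 and 0.048).

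Ndufb3, also of the distal arm, was the single tested member with a positive fold change. It was at 259, 237 and 271 TPM in DIC and 265, 224 and 270 TPM in controls, a log2 fold change of 0.02 with a 95% interval of -0.28 to 0.32 (limma adjusted p = 0.941). The groups were fully mixed. Without control 2 its log2 fold change was -0.06 (adjusted p = 0.709).

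Ndufb4 had the lowest level of the tested members, at 57.9, 42.7 and 53.9 TPM in DIC and 67.1, 47.7 and 58.2 TPM in controls (log2 fold change -0.16 ± 0.18, limma adjusted p = 0.635), and -0.29 ± 0.17 without control 2 (adjusted p = 0.287). The copy Ndufb4c was higher, at 154, 161 and 192 TPM in DIC and 316, 159 and 210 TPM in controls. Every 75-base stretch of the Ndufb4c transcript also occurs in a transcript of another gene, so the division of reads between these genes is uncertain. Their summed level was 221 ± 22.6 TPM in DIC and 286 ± 89.7 in control, a difference within the control spread.

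Ndufab1, the mitochondrial acyl carrier protein, had a log2 fold change of -0.37 and passed without control 2 (limma adjusted p = 0.0433). The Q-module accessory subunits Ndufa9 (-0.35) and Ndufa5 (-0.13) both overlapped between the groups. Without control 2, Ndufa9 fell by 0.53 ± 0.11 (limma adjusted p = 0.0377), and Ndufa5 was at -0.28 ± 0.14 (adjusted p = 0.228). Ndufa4 had a difference like that of the subunit genes, at 704, 736 and 806 TPM in DIC and 1159, 878 and 1070 TPM in controls (log2 fold change -0.46 ± 0.15, limma adjusted p = 0.213). Its groups did not overlap, and without control 2 it fell by 0.58 ± 0.11 (adjusted p = 0.0327). The row named Ndufb1-ps, which the rule leaves out but which RefSeq lists as the protein-coding Ndufb1, was at 231 ± 27.5 TPM in DIC and 227 ± 15.7 in control.

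Core and accessory subunits differed little in how far apart the groups were. The median log2 fold change was -0.38 over the 7 core genes and -0.35 over the 29 accessory genes, a difference of -0.024. Groups did not overlap for 6 of 7 core and 18 of 29 accessory genes, each lower in DIC, beside 18.4% of all genes. An unadjusted limma p under 0.05 was found for 4 of 7 and 11 of 29, beside 13.8% of all genes lower. Without control 2 the medians were -0.48 and -0.47. Then 2 of 7 core and 14 of 29 accessory genes fell, beside 8.45% of all genes. The mean log2 level of the core genes was below that of the accessory genes by a similar amount in every library. The difference was -0.604 (DIC 1), -0.520 (DIC 2) and -0.676 (DIC 3), against -0.545 (control 1), -0.490 (control 2) and -0.596 (control 4). The group means of this ratio were -0.60 ± 0.078 in DIC and -0.544 ± 0.053 in control (SD of 3 libraries), and the libraries of the groups overlapped.

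The relative levels of the subunits were similar in all libraries. Ndufa1 was the highest and Ndufb4 the lowest of the 36 in every library, with a ratio of TPM between 15.2 and 21.8. The division of reads between Ndufb4 and its copy Ndufb4c is uncertain, and their sum was 204 to 383 TPM across the libraries. Spearman correlations of the 38 members' levels between pairs of libraries ranged from 0.906 to 0.981, and these points share the genes' transcript lengths and annotation. Across the 38 members the fold change had a Spearman correlation of 0.05 with the longest annotated transcript's length and -0.18 with the mean level, given as descriptions.

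Levels within the complex, taken as each gene's log2 level minus the mean of the 36 subunits in the same library, gave each member's position among the subunits. This measure is unaffected by the scaling of a library. Of the 36, the groups overlapped for 29, did not overlap with DIC lower for 4 (Ndufa11, Ndufs8, Ndufa2 and Ndufb8), and did not overlap with DIC higher for 3 (Ndufb3, Ndufa5 and Ndufa1). On the same scale, 3.62% of all genes tested did not overlap with DIC lower and 20.1% with DIC higher. The subtracted mean is that of the members themselves and was lower in DIC. By construction this centres the members and shifts other genes upward in DIC. These shares are therefore no baseline for the members' counts, and no excess or lack of members can be read from them. For Ndufs8 the relative level was 0.180, 0.347 and 0.177 in DIC and 0.406, 0.439 and 0.493 in controls, with control 2 among the controls. For Ndufb3 it was 0.397, 0.198 and 0.349 in DIC and -0.168, 0.026 and 0.003 in controls. The other DIC-minus-control differences of non-overlapping genes were -0.28 for Ndufa11, -0.20 for Ndufa2, -0.14 for Ndufb8, 0.21 for Ndufa5 and 0.06 for Ndufa1. Ndufs3 (-0.30) and Ndufs1 (0.32) had large differences too, but their groups overlapped. Members named here from this measure were chosen after their values were seen, and the measure was not tested.

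**Figure D4:**
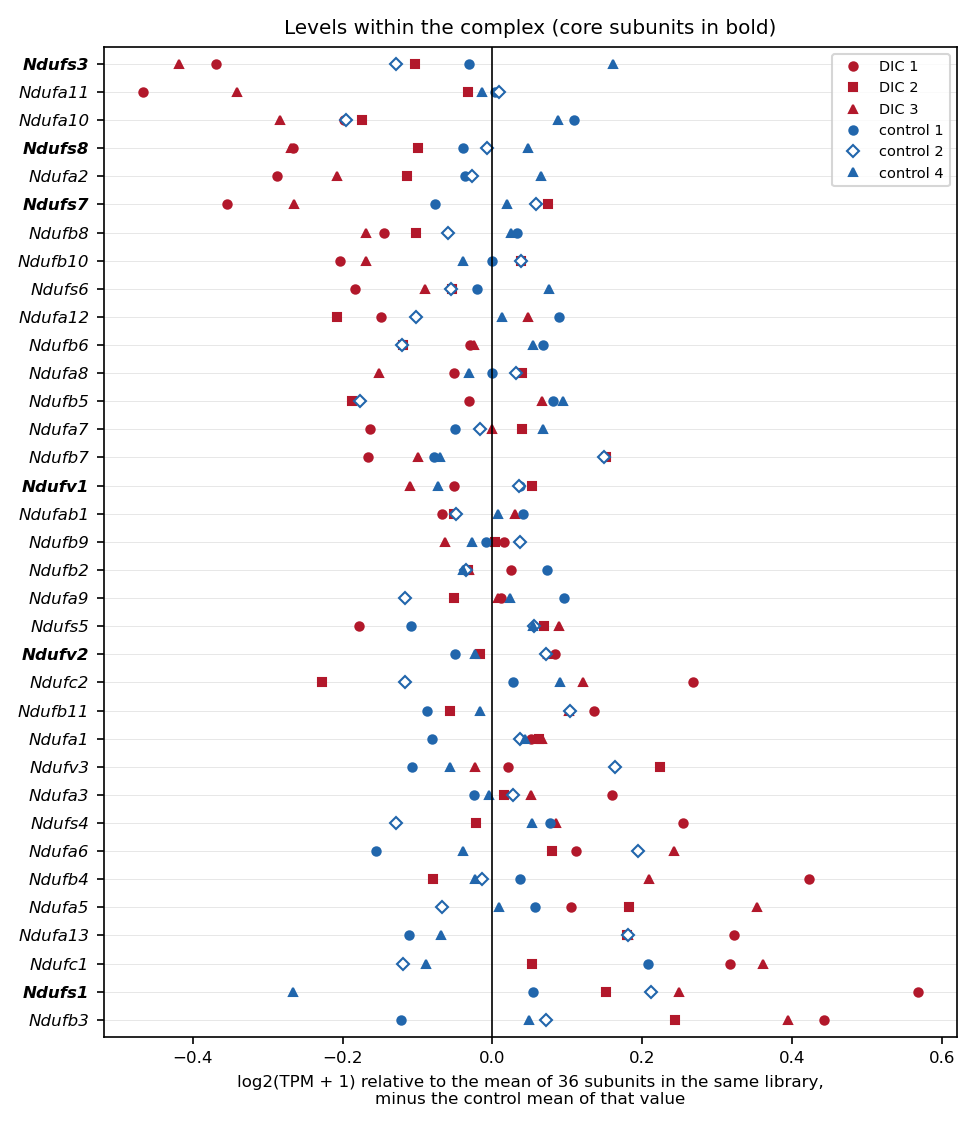
Log2 level of 35 of the 36 subunit genes relative to the mean of all 36 in the same library, minus the control mean of that value, by library (DIC red, control blue, control 2 open). Genes are sorted by the difference of the group means, from -0.30 for Ndufs3 to 0.36 for Ndufb3, and the groups overlap for all plotted genes except the 7 named in the text.

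The neutrophil share was higher in every DIC library than in every control, and control 2 had the highest share of the controls. Control 2 also had the lowest complex I share of the controls. DIC 1 had the highest neutrophil share of all libraries (22.6%) and the lowest complex I share (0.831%). DIC 3 exceeded DIC 2, and control 1 exceeded control 4, in both shares. With the 16 markers removed and TPM rescaled, the median log2 fold change of all genes moved from -0.08 to 0.10, and that of the members from -0.36 to -0.16. In that setting 11 of 38 members did not overlap with DIC lower, beside 7.84% of all genes, and 1, Ndufb3, with DIC higher, beside 13.3%. With the neutrophil score (mean log2 level of the markers) as a covariate, 29 of 38 members were negative, with a median of -0.08 against -0.10 for all genes. Of the other marker lists, mast cell and basophil genes summed to 446 to 616 TPM in DIC and 1061 to 3480 TPM in control, with Tpsb2 at 0 in every library. T and NK cell genes summed to 1336 to 1802 TPM in DIC and 1800 to 2296 TPM in control, with Cd3e and Trac at 0 in DIC 2. Erythroblast genes summed to 164 to 686 TPM in DIC and 157 to 226 TPM in control, and B lineage genes to 122 to 233 TPM in DIC and 237 to 558 TPM in control. The part of these cells in the result was not tested.

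Other respiratory genes showed values like those of complex I. The 17 assembly factors of complex I had a median log2 fold change of -0.24, with 0 past the threshold, and 5 fell and 1 rose without control 2. Their lowest p-values were for Ndufaf6, at 22.9 ± 2.21 against 39.0 ± 8.31 TPM, and Ndufaf8, at 68.3 ± 3.87 against 103 ± 14.4 TPM (limma adjusted p = 0.212 each). The nuclear genes of complexes II, III, IV and V had medians of -0.35, -0.46, -0.37 and -0.39. Of them, 0 passed with all libraries, and 3 of 4, 5 of 9, 6 of 10 and 9 of 15 fell without control 2. Genes of the citric acid cycle, which supplies the NADH, had a median of -0.29, and 5 of 12 fell without control 2. Beside the counts of these lists, 8.45% of all genes fell and 530 of 13496 rose without control 2. The 11 tested regulators of mitochondrial biogenesis had a median of -0.06, with 5 positive and 6 negative. With or without control 2, 0 passed the adjusted threshold. For 3 of the 11 the groups did not overlap, each lower in DIC, beside 18.4% of all genes. Their lowest p-values were for Tfb2m, at 14.2 ± 0.666 against 20.0 ± 2.23 TPM, and Polrmt, at 12.8 ± 2.55 against 18.1 ± 2.60 TPM (limma adjusted p = 0.212 and 0.230).

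The 7 core subunits that the mitochondrial genome encodes showed another order of libraries. Their sum was 5589, 12528 and 6262 TPM in DIC 1, 2 and 3 and 7723, 10803 and 9614 TPM in controls 1, 2 and 4, so DIC 2 was the highest library and control 2 the highest control. Of the 7, all but mt-Nd4l had negative fold changes, and their groups overlapped. mt-Nd3, a membrane arm subunit, was at 155, 921 and 309 TPM in DIC and 713, 970 and 788 TPM in controls (log2 fold change -1.20 ± 0.58, limma adjusted p = 0.286), and at -1.08 without control 2 (adjusted p = 0.329). mt-Nd4l, whose gene overlaps mt-Nd4, was listed at 0 in all 3 controls and at 17.9 to 75.02 TPM in DIC (limma adjusted p = 0.0206, and 0.0153 without control 2).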

How the data were processed

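RNA-seq values of 6 libraries were used. The authors deposited 1 table of TPM per gene, each library summing to about 1000000. Per the submitters' processing notes, the tools were fastp 0.19.5, HISAT2 2.1.0 and StringTie 2.1.2, with the build GRCm39. The annotation used is not stated there. TPM carries no depth. Between 20474 and 22720 genes were above 0 in a library.

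Symbols were matched by Ensembl identifier for 52081 of 56750 rows. Exon overlaps and shared 75-base stretches came from GENCODE M21 (GRCm38), and promoters from RefSeq. Of 198 list entries, 1 had no row. Control columns 1 and 4 were assigned by group only, because 1 control is titled with one number and described with another.

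The 13496 genes reaching 1 TPM in 3 or more libraries were analysed as log2(TPM + 1) in limma 3.58.1 (R 4.3.3). The model had the group alone, with a trended prior variance. Tests were two-sided, with Benjamini-Hochberg adjustment over all genes and a threshold of 0.05. This scale understates changes of low genes. The fit was tested on simulated data, in 5 runs with 200 changed genes each. It called 37.5% of genes with a log2 change of 1 in either direction, 79.9% at 2 and 91.8% at 3. Of unchanged genes it called 0.05%. Changes as small as those of the members (at most 0.64) were not simulated, so 0 members past the threshold does not show that they were unchanged.

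Members and lists were chosen with earlier results of these data known. Values per library were given for the core subunits, the 8 members of lowest p, the 3 highest and 3 lowest mean levels, any positive fold change, and the 6 lowest p-values without control 2. In other lists at most 2 genes, those of lowest p, were named. Alternatives covered pseudocounts, filters, scaling, limma settings, a neutrophil covariate, a replicate block and leaving out each library. Protein sequences were not used here. The values of 1 member are not reported here, in text or plots, but it stays in all counts, sums and medians.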

Additional observations from a re-analysis of the deposited data

How the results depend on the processing

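Over all genes 8 passed the threshold, 5 higher and 3 lower. The count was 5 with a pseudocount of 0.1 or 5, and 0 with no filter, with the neutrophil covariate, without DIC 1 or without control 4. It was 20 without DIC 2 and 1671 without control 2. After quantile normalization 6 passed, 1 of them lower. The number of members past the threshold was 0 in every alternative with all 6 libraries. Across these, the lowest limma adjusted p of a member ranged from 0.0578, with limma weights per library, to 0.9999, with the neutrophil covariate. It was 0.212 in the main fit. With 1 library left out it ranged from 0 to 17, the 17 coming without control 2. Without control 2 and with the neutrophil markers removed as well, a setting chosen after seeing the data, it was 2 (Ndufs3 and Ndufa10). The members without overlap numbered 12 with the neutrophil markers removed (11 lower in DIC, beside 7.84% of all genes, and 1 higher, beside 13.3%). With 1 library left out they numbered 25 to 34, all lower, beside 21.3% to 30.9% of all genes. The median log2 fold change of the members was -0.097 after quantile normalization, -0.159 with the neutrophil markers removed, -0.078 with the neutrophil covariate, and -0.486 to -0.255 with 1 library left out. The core-minus-accessory difference was -0.101 after quantile normalization and -0.078 to 0.0069 with 1 library left out, positive without DIC 3. The cause of these changes was not tested.

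Among named members, Ndufs1 had a positive log2 fold change of 0.14 after quantile normalization, 0.18 with neutrophil markers removed, 0.22 with control 2 left out too, 0.062 without DIC 2 and 0.10 without control 1. With 1 library left out it ranged from -0.128 to 0.104. After quantile normalization 30 of 38 members were negative, and Ndufa1 (0.016) and Ndufa3 (0.065) were among those that turned. Removal of neutrophil markers left 31 negative and also turned Ndufb4 (0.045), Ndufc1 (0.107), Ndufa13 (0.089), Ndufa5 (0.077) and Ndufa6 (0.0077). Ndufb3 was -0.024 without DIC 3 and -0.065 without control 2, and at most 0.074 with 1 library left out. It was 0.259 after quantile normalization, 0.225 with neutrophil markers removed and 0.144 with the covariate.

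Library numbers 1 and 2 occur in both groups. With them as a replicate block, 0 members passed and the median was -0.368. The deviations of same-numbered libraries correlated at -0.068 and -0.102, so the numbers gave no sign of pairing. Depth is unknown, so the limit it sets cannot be stated.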
